A study of Mus musculus with 4 samples.

Results

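The channel genes described here encode voltage-gated calcium, sodium and potassium channels and their accessory subunits in differentiating mouse P19 cells. Members were taken by gene symbol (Cacna1, Cacna2d, Cacnb and Cacng genes for calcium, Scn genes for sodium and Kcn genes for potassium). The symbol rule uses no measured value, but it was chosen with earlier results of these data known. This gave 136 probe sets for 93 genes, of 12393 genes with a single symbol on the arrays, and each gene was represented by its probe set with the highest mean log2 value. Of the 93 genes, 23 belong to calcium channels, 9 to sodium channels and 61 to potassium channels. The symbol rule for potassium also takes in families that are not opened by voltage, namely the inward rectifiers (Kcnj), the tandem-pore leak channels (Kcnk) and the calcium-activated small-conductance channels (Kcnn).

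P19 is a mouse embryonal carcinoma line that makes neural cells when it is aggregated in retinoic acid. The control group was unmodified P19 cells and the other group was P19 cells that express human LIN28A at all times, an RNA-binding protein that blocks the maturation of let-7 microRNAs. All cells were aggregated in Petri dishes with retinoic acid (all-trans, 5e-07 M) over 4 days. Each line has 2 arrays, numbered 1 and 2. The labels describe no vector for the controls and give neither the promoter of the transgene nor whether the LIN28A line is 1 clone. The labels number the arrays as repeats and name no separate cultures. A p-value here therefore reflects array-to-array spread alone, and that spread may be technical. The mouse probe sets do not check the human transgene, and the labels alone place an array in its group.

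Voltage-gated channels are built from a large pore-forming subunit, alpha1 or alpha, whose charged segments move when the membrane depolarises, and from accessory subunits that set how many channels reach the surface and how fast they open and close. In developing neurons, T-type calcium channels and some potassium channels appear before the sodium channels that carry mature action potentials. Alpha2delta and sodium beta subunits are also known for roles in contacts between neurons.

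As a view of the start regions behind the values that follow, the 250 bases before the annotated start are printed from RefSeq (GRCm38.p6) for 3 of the 7 genes that read lower in both LIN28A arrays, each from another role, Cacna2d3 (chr14:29721865-29722114, minus strand), Kcna5 (chr6:126535556-126535805, minus strand) and Kcnk2 (chr1:189402274-189402523, minus strand), and for Kcnh2 (chr5:24329592-24329841, minus strand), whose arrays overlapped between the lines. These 4 were chosen after their values were seen. Capitals mark the E-box CAGCTG, a sequence bound by proneural basic helix-loop-helix factors, and the GC box GGGCGG or its reverse complement.
Cacna2d3: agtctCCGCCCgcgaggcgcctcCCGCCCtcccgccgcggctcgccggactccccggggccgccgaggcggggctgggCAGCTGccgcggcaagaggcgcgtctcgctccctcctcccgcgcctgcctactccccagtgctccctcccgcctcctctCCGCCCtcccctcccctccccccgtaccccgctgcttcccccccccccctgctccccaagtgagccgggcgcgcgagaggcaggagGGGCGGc
Kcna5: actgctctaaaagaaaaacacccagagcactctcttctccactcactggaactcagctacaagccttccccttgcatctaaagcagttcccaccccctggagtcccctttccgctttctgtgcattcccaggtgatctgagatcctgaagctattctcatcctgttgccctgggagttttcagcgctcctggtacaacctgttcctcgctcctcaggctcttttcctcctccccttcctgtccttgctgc
Kcnk2: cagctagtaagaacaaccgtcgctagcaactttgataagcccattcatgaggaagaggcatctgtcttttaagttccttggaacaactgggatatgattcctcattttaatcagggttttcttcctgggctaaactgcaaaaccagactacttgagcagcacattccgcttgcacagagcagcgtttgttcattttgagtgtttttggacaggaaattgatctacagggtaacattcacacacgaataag
Kcnh2: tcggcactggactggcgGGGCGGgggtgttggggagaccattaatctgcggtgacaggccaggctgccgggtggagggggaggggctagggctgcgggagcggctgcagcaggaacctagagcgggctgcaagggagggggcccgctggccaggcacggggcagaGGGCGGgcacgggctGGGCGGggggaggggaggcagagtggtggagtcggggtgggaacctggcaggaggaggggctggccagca
The 4 start regions differ widely. The Cacna2d3 window is 80.0% G and C with 30 CpG pairs, 1 E-box 172 bases before the start and 4 GC boxes. Kcna5 and Kcnk2, at 53.2% and 42.4% G and C, hold neither motif, and Kcnh2, at 73.6%, holds 3 GC boxes and no E-box. Of the 93 channel genes 74 matched a window. With 1 window per gene, searched on both strands, 19 of the 74 held CAGCTG (25.7%), against 11.7% of the 9887 genes of the array with a window. GGGCGG was in 36 of the 74 (48.6%), against 53.1%. Of channel genes with a mean intensity of at least 16 over the 4 arrays, 14 had a window, and 2 of these held CAGCTG (14.3%). Of the 7 genes lower in both LIN28A arrays 5 had a window, and 1 of these held CAGCTG. The TATA box TATAAA was in 2 of the 74 windows (2.70%), against 9.13%. The motifs were chosen after the windows had been looked at, and a match is a description of the letters only.

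Few channel genes gave a clear signal at this stage. Of the 93 genes, 19 reached a mean intensity of 16 over the 4 arrays (20.4%), against 63.9% of all genes. Of the other 74 genes, 59 read under 16 in every array. The table has no detection calls, so values under 16 are given without a statement on detection. Just inside this limit lay Cacng5, with a mean of 16.8, and just outside lay Cacnb1, with 14.8. Intensities of different probe sets do not rank transcripts by abundance, and so genes are compared between arrays and not with each other.

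Among the 19 genes, 7 had both LIN28A arrays below both control arrays: Cacna2d3, Cacna1g, Cacna1c, Cacng5, Scn3b, Kcna5 and Kcnk2. None of the 19 had both above. Over all genes with a mean of at least 16, 15.2% lay lower in this way and 12.4% higher. Of the 7, Kcna5 and Cacng5 reached a mean of 16 only through the controls, with LIN28A means of 11.3 and 9.65. Under quantile normalization 7 of the 19 lay lower (13.6% of all such genes), 6 of them the same as in the deposited values, with Kcnh2 in place of Cacng5. Kcnab2 and Kcnmb2 lay higher there (14.4% of all such genes). These 2 reached a mean of 16 only through the LIN28A arrays, with control means of 15.85 and 15.95. After median centring 6 lay lower (8.69% of all such genes), all among the 7, and Kcnab2 lay higher (21.3% of all such genes). In bulk samples, fewer cells of a type and less RNA per cell cannot be told apart.

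**Figure D1:**
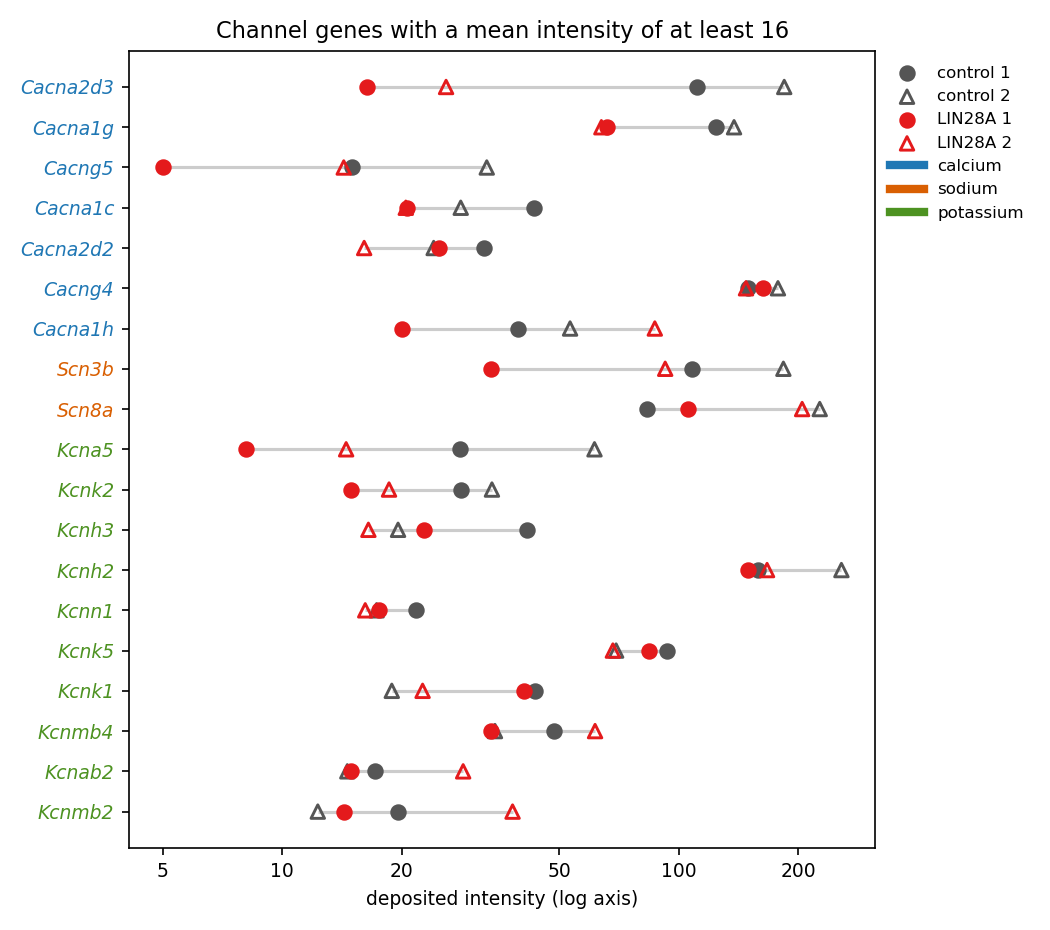
Deposited intensity (log axis) of the 19 channel genes with a mean of at least 16 in the 4 arrays; circles are number 1, triangles number 2, grey control and red LIN28A, and lines span the 4 arrays. Cacna2d3 has the widest gap between the lines, from 25.9 in the higher LIN28A array to 111 in the lower control array, while the arrays of genes such as Scn8a and Cacng4 interleave.

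No channel gene passed limma's test over all 15838 probe sets at an adjusted p under 0.05. The number called was 0 in either direction, as for 0% of all probe sets, and the 38 channel genes tested each had an adjusted p of 0.999997. At an unadjusted p under 0.05, limma gave 3 channel genes lower (Cacna2d3, Kcna5 and Cacna1g) and 0 higher, against 1.21% and 0.442% of all probe sets. Without control 2 or without LIN28A 1, only Cacna2d3 remained at that level. No channel gene reached it in the higher direction under any of the planned settings. A fit with replicate number as a block gave 6 channel genes lower at an unadjusted p under 0.05 (5.62% of all probe sets), and at an adjusted p under 0.05 it called 0 channel genes, with 0.00631% of all probe sets called.

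The widest difference between the lines was in a calcium channel gene. Cacna2d3 encodes an alpha2delta subunit, an extracellular protein that helps calcium channels reach the cell surface. Its probe set read 111 in control 1, 184 in control 2, 16.4 in LIN28A 1 and 25.9 in LIN28A 2. Both LIN28A arrays lay far below both control arrays, with a ratio of control to LIN28A of 6.77 in number 1 and 7.12 in number 2. The log2 difference was -2.11 ± 0.35 (SE, n = 2 per group), with an unadjusted p of 0.00105 in limma and an adjusted p of 0.999997. This p was the 3rd lowest of the 15838 probe sets. The log2 difference was also computed under other settings. It was -2.05 under quantile normalization and -1.99 after median centring. Leaving out an array gave -2.44 to -1.79, where the sign could not turn because the arrays of the lines do not overlap. With pseudocount 1 the log2 difference was -2.74, and with pseudocount 64 it was -1.29.

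The other alpha2delta genes differed less. Cacna2d2 read 32.2 and 24.1 in the controls against 24.9 and 16.1 in LIN28A cells, and so LIN28A 1 lay just above control 2. Its log2 difference was -0.28 ± 0.30 (SE, n = 2 per group). Cacna2d1, an alpha2delta gene known as a target of gabapentin drugs, read 13.1, 15, 5.70 and 7.80 in control 1, control 2, LIN28A 1 and LIN28A 2, lower in both LIN28A arrays but under 16 throughout.

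Of the 9 alpha1 pore genes, 3 reached 16. Cacna1g encodes a T-type channel, which opens at small depolarisations. It read 124 and 138 in the controls against 66.0 and 63.8 in LIN28A cells, with close agreement within each line and no overlap. Its log2 difference was -0.86 ± 0.28 (SE, n = 2 per group; unadjusted p of 0.0218 and adjusted p of 0.999997 in limma), with -0.93 to -0.79 when an array was left out. Cacna1h, the other T-type gene to reach 16, read 39.4 and 53.2 in control against 20 and 87.0 in LIN28A cells. The LIN28A arrays lay on either side of both controls, so that the log2 difference was -0.62 in number 1 and 0.57 in number 2. Cacna1c, which encodes an L-type channel of heart, smooth muscle and neurons, read 43.1 and 28.2 in control against 20.6 and 20.5 in LIN28A cells. Its log2 difference of -0.48 was -0.69 in number 1 and -0.28 in number 2, and leaving out control 1 gave -0.27.

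The 6 alpha1 genes under 16 showed little. The L-type gene Cacna1d read 28.1 in control 1 and 6.60 to 9.40 in the other arrays, and the presynaptic channel gene Cacna1a read 25.4 in control 1 and 6.40 to 11.4 elsewhere. In both, control 1 alone was high. Cacna1b, Cacna1e, Cacna1f and Cacna1s, which include the skeletal muscle and the retinal L-type channel, read between 0.3 and 14.8.

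Of the 8 gamma subunit genes, 2 reached 16. Cacng4 and Cacng5 are also known as partners of AMPA-type glutamate receptors. Cacng4 read 149 and 178 in control against 163 and 148 in LIN28A cells, with interleaved arrays and a log2 difference of -0.06 ± 0.28 (SE, n = 2 per group). That became 0.063 after median centring. Its neighbour on chromosome 11, Cacng5, read 15 and 32.8 in control against 5.00 and 14.3 in LIN28A cells. LIN28A 2 lay only just under control 1, and the log2 difference of -0.62 became -0.30 without control 2. A further Cacng5 probe set read 3.30 to 6.0 with a log2 difference of 0.055. The other gamma genes and all 3 beta genes lay under 16, with Cacnb1 at 11.0, 21.5, 10.5 and 16.3.

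Of the sodium channel genes, 2 of 9 reached 16 and they behaved differently. Scn3b encodes a beta subunit that is abundant in the embryonic brain. It read 108 and 184 in the controls against 33.6 and 92.4 in LIN28A cells. Both LIN28A arrays lay below both controls, and number 2 was higher than number 1 in either line. The log2 difference was -1.10 ± 0.47 (SE, n = 2 per group; unadjusted p of 0.0602 and adjusted p of 0.999997 in limma), -1.32 in number 1 and -0.88 in number 2. Leaving out LIN28A 1 gave -0.54, and leaving out LIN28A 2 gave -1.66. The dimmer Scn3b probe set differed by 0.27 in number 1 and -0.88 in number 2.

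Scn8a, which encodes a pore subunit found at the axon initial segment and nodes of Ranvier, read 83.1 and 227 in control against 105 and 205 in LIN28A cells. Its arrays separated by number and not by line, with a difference of number 2 minus number 1 of 1.08 and of LIN28A minus control of 0.08 ± 0.53 (SE, n = 2 per group) on the log2 scale. Its other probe set followed, at 1.30, 30.1, 5.80 and 28.1. The pore genes of mature brain neurons, Scn1a and Scn2a, read 9.60 to 19.9 and 6.30 to 13.6, with log2 differences of -0.16 (0.026 under quantile normalization) and -0.17. Scn3a, Scn7a, Scn9a, Scn10a and Scn11a lay between 0.5 and 7.10 in every array.

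Among 20 genes for pores of voltage-gated potassium channels, 3 reached 16. Kcna5 encodes a delayed rectifier, which repolarises the membrane. It read 28 and 61.3 in control against 8.10 and 14.5 in LIN28A cells. Both LIN28A arrays lay under both controls and under 16. The log2 difference was -1.11 ± 0.38 (SE, n = 2 per group; unadjusted p of 0.0268 and adjusted p of 0.999997 in limma). It ranged from -1.51 without control 1 to -0.70 without control 2. Kcna1 and Kcna6, its neighbours on chromosome 6 in RefSeq's GRCm38.p6 annotation, read 2.80 to 17.3 and 3.50 to 6.0.

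The Kcnh genes encode channels of the ether-a-go-go family. Kcnh2 read 158 and 257 in control against 150 and 167 in LIN28A cells. LIN28A 2 lay just above control 1, and the log2 difference of -0.33 was -0.003021 without control 2 and -0.65 without control 1. Kcnh3 read 41.5, 19.6, 22.8 and 16.5 in control 1, control 2, LIN28A 1 and LIN28A 2, with control 1 alone high. The other 17 pore genes of this kind had mean intensities of at most 11.7 and log2 differences between -0.49 and 0.25.

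The 3 beta subunit genes of potassium channels that reached 16 read lower in LIN28A cells in number 1 and higher in number 2. Kcnmb4 and Kcnmb2 encode beta subunits of the large-conductance calcium-activated channel. Kcnmb4 read 48.6 and 34.4 in control against 33.7 and 61.5 in LIN28A cells, with log2 differences of -0.38 in number 1 and 0.62 in number 2. Kcnmb2 read 19.6 and 12.3 in control against 14.3 and 38.1 in LIN28A cells, or -0.23 and 0.93. Its other probe set gave -0.28 and 0.34. Kcnab2, which encodes a cytoplasmic beta subunit, read 17.1, 14.6, 14.9 and 28.6 in control 1, control 2, LIN28A 1 and LIN28A 2. In all 3 genes LIN28A 2 was the highest of the 4 arrays, and the means of the lines differed by less than the spread between the LIN28A arrays. Kcnip4, which encodes a binding partner of A-type channels, read 20.7 in control 1 and 4.00 to 8.70 in the other arrays.

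Of 8 tandem-pore leak channel genes, 3 reached 16. Kcnk2, a channel opened by stretch and lipids, read 28.2 and 33.8 in control against 14.9 and 18.6 in LIN28A cells. Both LIN28A arrays lay below both controls, by -0.52 in number 1 and -0.53 in number 2 (log2 difference -0.52 ± 0.28 SE, n = 2 per group). Kcnk5, an acid-sensitive channel, read 93.3 and 69.5 in control against 84.0 and 68.2 in LIN28A cells. Kcnk1 read 43.4 and 18.9 in control against 40.6 and 22.6 in LIN28A cells, and in both genes number 1 read higher than number 2 in either line. Kcnk5 differed by -0.075, or 0.052 after median centring and -0.24 with its probe sets averaged. Kcnk1 differed by 0.038. Kcnn1, a small-conductance channel gene, read 21.8, 17.3, 17.5 and 16.2 in control 1, control 2, LIN28A 1 and LIN28A 2. None of the 13 inward rectifier genes reached 16, with a highest mean of 14.6 for Kcnj3.

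**Figure D2:**
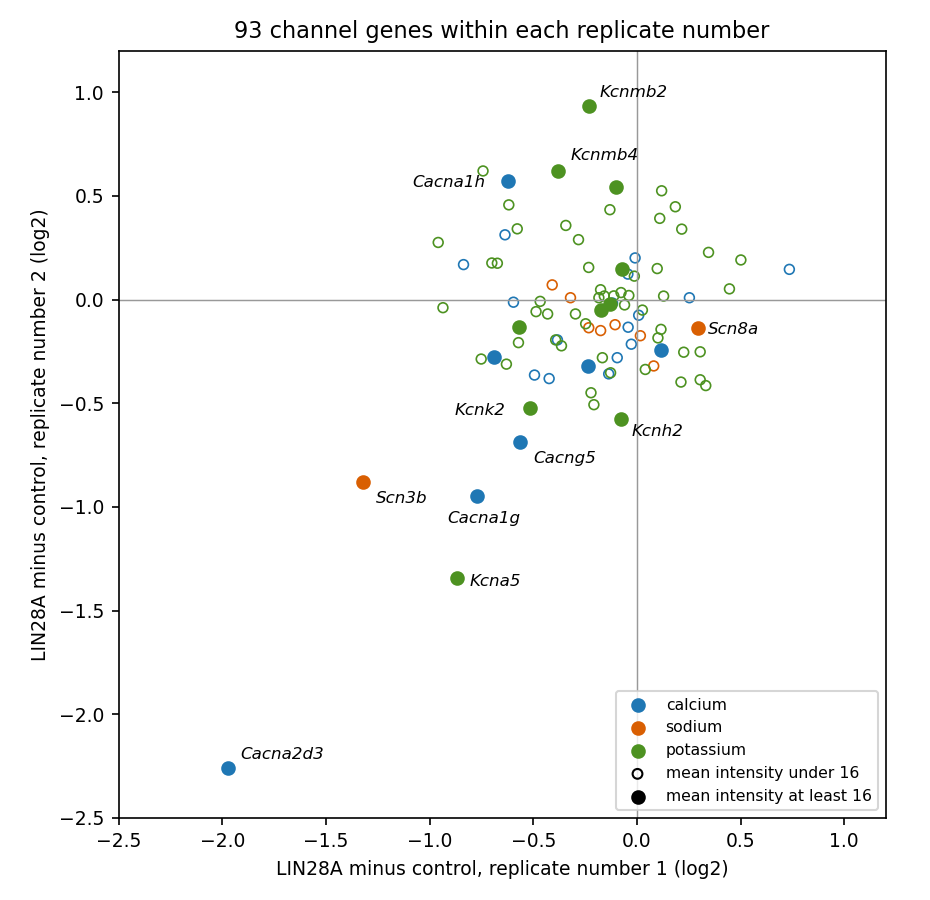
Log2 difference of LIN28A minus control in replicate number 1 (horizontal) and number 2 (vertical) for 93 channel genes, coloured by ion; filled points have a mean intensity of at least 16. Cacna2d3 lies apart at -1.97 and -2.26, Kcna5, Scn3b and Cacna1g follow in the lower left, and Cacna1h, Kcnmb2 and Kcnmb4 lie to the left of 0 but above 0.

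Among the 19 genes, the same 4 had the most negative log2 differences within each replicate number. Cacna2d3, Kcna5 and Scn3b differed by under -0.8 within number 1 and within number 2, as 0.796% of all genes with a mean of at least 16 did. Cacna1g came close at -0.77 and -0.95. The limit of -0.8 was not among the planned settings and falls between Kcna5 and Cacna1g in number 1, so the count is a description only. Kcna5 reached a mean of 16 only through the controls. Of the 19 genes, 12 were negative in both numbers and 0 were positive in both, beside 31.0% and 27.8% of all such genes. The numbers themselves separated the arrays more than the lines did. Across 15838 probe sets, which are not independent replicates, Pearson's r was 0.97 between the lines within either number, while the controls correlated at 0.93 with each other and the LIN28A arrays at 0.94. The 18S ribosomal RNA probe set read 331 and 146 in number 1 and 13.5 and 13.2 in number 2.

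Over all 93 genes the log2 differences were small. Their median was -0.093, with 70 of 93 below 0, beside a median of -0.061 and 59.9% below 0 over all genes. Under quantile normalization 49 of 93 lay below 0 (49.3% of all genes), and after median centring 41 of 93 did (40.3% of all genes). For the 19 genes with a mean of at least 16 the median was -0.28, with 14 below 0, beside -0.015 and 52.2% for all such genes. Of these 19, 12 lay below 0 under quantile normalization (48.1% of all such genes) and 10 after median centring (35.6%). For all probe sets tested, the median log2 difference was -0.049 as deposited and 0.078 on the centred scale.

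By ion, the median was -0.19 for the 23 calcium channel genes (19 below 0, 10 lower in both arrays), -0.16 for the 9 sodium channel genes (8 below 0, 2 lower in both) and -0.064 for the 61 potassium channel genes (43 below 0, 14 lower in both). Over all genes 18.3% were lower in both arrays. The calcium median shrank to -0.075 under quantile normalization and -0.061 after median centring, the sodium median to -0.040 and -0.029, and the potassium median turned to 0.037 and 0.063. All 7 calcium channel genes with a mean of at least 16, Cacng5 only through its controls, lay below 0 as deposited. Under quantile normalization 6 did, and after median centring 5. Within both numbers 5 of the 7 were negative, beside the 31.0% of all such genes. The exceptions were Cacna1h, positive in number 2 and under both scalings, and Cacng4, positive in number 1 and after median centring.

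**Figure D3:**
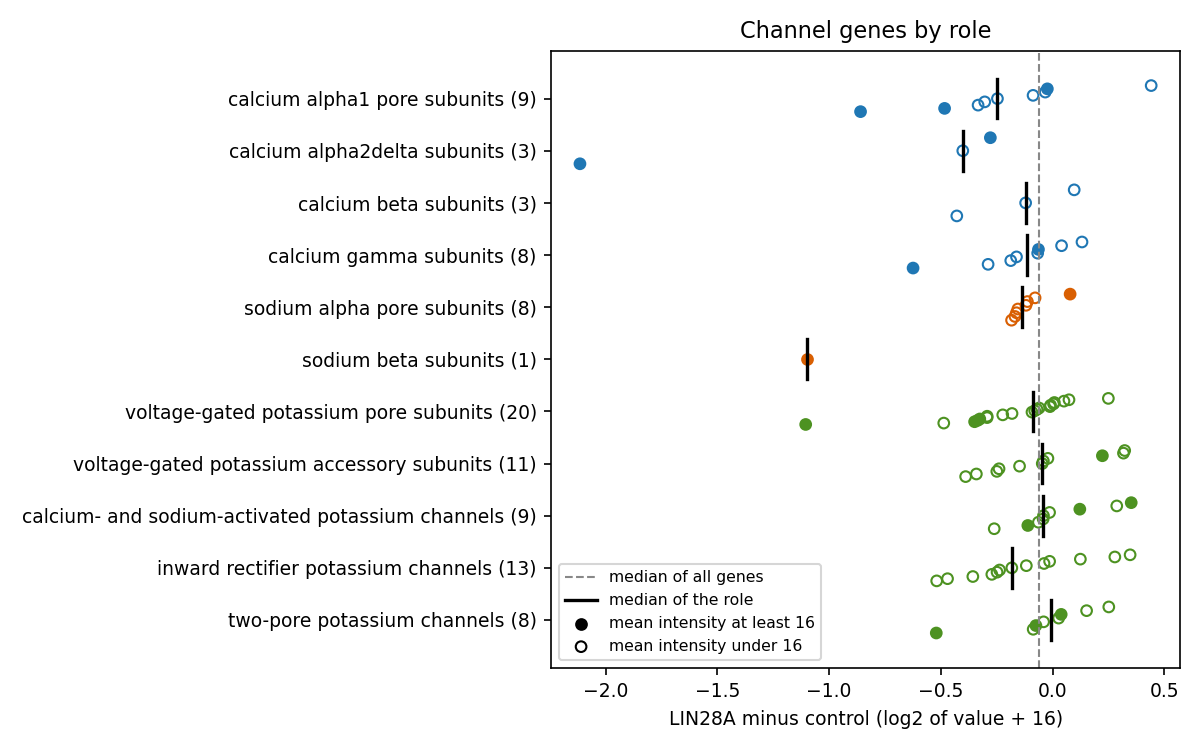
Log2 difference of LIN28A minus control for 93 channel genes in rows by role, with the number of genes in brackets; filled points have a mean intensity of at least 16, short bars are the median of each role, and the dashed line is the median of all genes, -0.061. The points far to the left are single members of their roles, and role medians run from -0.40 for alpha2delta genes to -0.0072 for tandem-pore genes, apart from -1.10 for the 1 sodium beta gene.

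Most channel genes sat at the low end of the arrays, where control 1 read higher. Of the 74 genes under 16, 19 were lower in both LIN28A arrays (25.7%), beside 23.6% of all genes under 16. For those 74, 56 lay below 0 (75.7%), beside 73.6% of all such genes. Control 1 was the highest of the 4 arrays in 35 of the 74, and 11 of the 74 reached 16 in control 1, against 1 in control 2, 0 in LIN28A 1 and 4 in LIN28A 2. Over all genes under 16 the median intensity was 7.90 in control 1 and 3.30 to 3.60 in the other arrays. The part of this low-end difference in the low channel genes was not tested. Across the 93 genes, 26 lay lower in both arrays as deposited, 14 under quantile normalization (14.0% of all genes) and 10 after median centring (7.50% of all genes). Those higher in both arrays numbered 7 as deposited (10% of all genes), 18 under quantile normalization (14.9% of all genes) and 13 after median centring (17.9% of all genes). Under both scalings more genes lay higher than lower, among channel genes as over all genes. Each of the 7 (Cacna1f, Kcnab3, Kcnj4, Kcnj9, Kcnk13, Kcnmb1 and Kcnq1) read under 16 in all 4 arrays.

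Genes for channel partners, from a separate list of anchoring proteins, regulators and other channels, were read beside the members. Of 37 listed, 24 were measured, with a median log2 difference of -0.16, and 0 passed limma's adjusted threshold. Of the 24, 18 lay below 0 (75%), beside 59.9% of all genes. In both arrays 6 were lower (25%) and 2 higher, beside 18.3% and 10% of all genes. Of the 14 partners with a mean of at least 16, 10 lay below 0 (71.4%), beside 52.2% of all such genes. In both arrays 2 of the 14 were lower (14.3%) and 1 higher, beside 15.2% and 12.4% of all such genes. Dpp6, an accessory protein of A-type potassium channels, read 26.7 and 17.1 in control against 2.40 and 8.30 in LIN28A cells. Rem2, a small G protein that restrains calcium channels, read 91.8 and 144 in control against 51.1 and 88.1 in LIN28A cells. Both were lower in both LIN28A arrays, but Dpp6 had a mean of only 13.6. Of all genes with a mean under 16, 23.6% were lower in this way.

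Fgf13, which binds sodium channels and microtubules, read 251 and 280 in control against 172 and 210 in LIN28A cells, and its relative Fgf11 read 23.4, 16.6, 8.40 and 9.0. Both lay lower in both LIN28A arrays, with log2 differences of -0.45 and -0.54. Fgf11 had a mean of 14.35, in the range under 16 where control 1 read higher over all genes. Hcn3, a pacemaker channel gene, read 37.1, 52.5, 16.6 and 41.9 with overlapping arrays. Cntnap2, which clusters potassium channels along axons, went the other way, at 170 and 120 in control against 220 and 506 in LIN28A cells. Rest, the repressor of neuronal genes whose targets include channel genes, read 84.6 and 16.6 in control against 134 and 10.6 in LIN28A cells, separated by number and not by line.

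Neuronal markers also had negative log2 differences. Of 28 listed neuronal markers 26 were measured, with a median log2 difference of -0.61. The difference was negative for all 26, against 59.9% of all genes. Both LIN28A arrays read under both controls for 9 markers (34.6%), against 18.3% of all genes. At a mean of at least 16, the shares were 100% and 37.5% for 24 markers, against 52.2% and 15.2% of all such genes. This list was chosen with earlier results of these data known, and no values under other scalings are given for it. The summed intensity of the 26 markers was 7003.5 and 10871 in the controls against 3799 and 7715 in LIN28A cells, and these ranges overlap. None of the markers was listed at 0, the lowest value being 4.50, and 0 passed limma's adjusted threshold. At an unadjusted p under 0.05 in limma 4 were lower and 0 higher, against 1.21% and 0.442% of all probe sets. The part of neuronal content in the channel differences was not tested. 

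Other marker lists covered cells that the cultures could also hold. Of 18 heart and skeletal muscle markers, 15 read under 16 in all 4 arrays, and their sum was 164.5 and 85.0 in control against 107.5 and 122.5 in LIN28A cells. Of 13 glial markers 3 reached 16, with sums of 387 and 383 in control against 258 and 385 in LIN28A cells. All 13 neural progenitor markers reached 16, with a median log2 difference of 0.055 and sums of 9239 and 11301 in control against 10291 and 8029 in LIN28A cells. Of 14 fibroblast and smooth muscle markers 7 reached 16, with a median of 0.22 and sums of 837 and 769 in control against 833 and 1118 in LIN28A cells. The 12 endoderm markers summed to 568.5 and 667 in control against 647 and 880.0 in LIN28A cells, and the 12 pluripotency markers to 474 and 639 in control against 602 and 1455 in LIN28A cells. In each of these lists the sums overlapped between the lines. Single markers did not always overlap. Both LIN28A arrays lay above both controls for 5 of the 14 fibroblast and smooth muscle markers, Col3a1, Acta2, Col5a1, Cnn1 and Postn. Cnn1 and Postn read under 16 in all 4 arrays. The same held for 4 of the 12 pluripotency markers, Sall4, Dnmt3b, Lefty1 and Utf1. Lower in both LIN28A arrays were 1 of the 14, Lox, and 2 of the 12, Fgf4 and Esrrb. Lox read 38.5 and 36.3 in control against 7.50 and 14.3 in LIN28A cells. Of the 13 neural progenitor markers, 1 was higher in both (Hes5) and 2 were lower (Sox2 and Vim). Hes5 read 186 and 194 in control against 924 and 337 in LIN28A cells. Of the 12 endoderm markers, 1 was higher (Lamb1) and 3 were lower (Sox7, Afp and Ttr). Of the 13 glial markers, 1 was higher (Slc1a3) and 2 were lower. Of the 18 heart and skeletal muscle markers, 1 was higher and 3 were lower. Over all genes 10% were higher and 18.3% lower in both arrays. Sall4, a transcription factor of pluripotent cells, read 16.4 and 2.10 in control 1 and 2, then 194 and 83.1 in LIN28A 1 and 2. Its log2 difference was 2.58, with an adjusted p of 0.999997 in limma. The part of such cells in the channel differences was not tested. LIN28A 2 had the highest sum for endoderm, fibroblast and pluripotency markers. Much of its pluripotency sum was Pou5f1, which read 30.3 and 374 in control against 28.7 and 775 in LIN28A cells. Pou5f1 thus separated by number and not by line, and Nanog was highest in control 1, at 70.8. Kcnmb2, Kcnmb4 and Kcnab2 were also highest in LIN28A 2, and the part of such cells in those values was not tested.

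**Figure D4:**
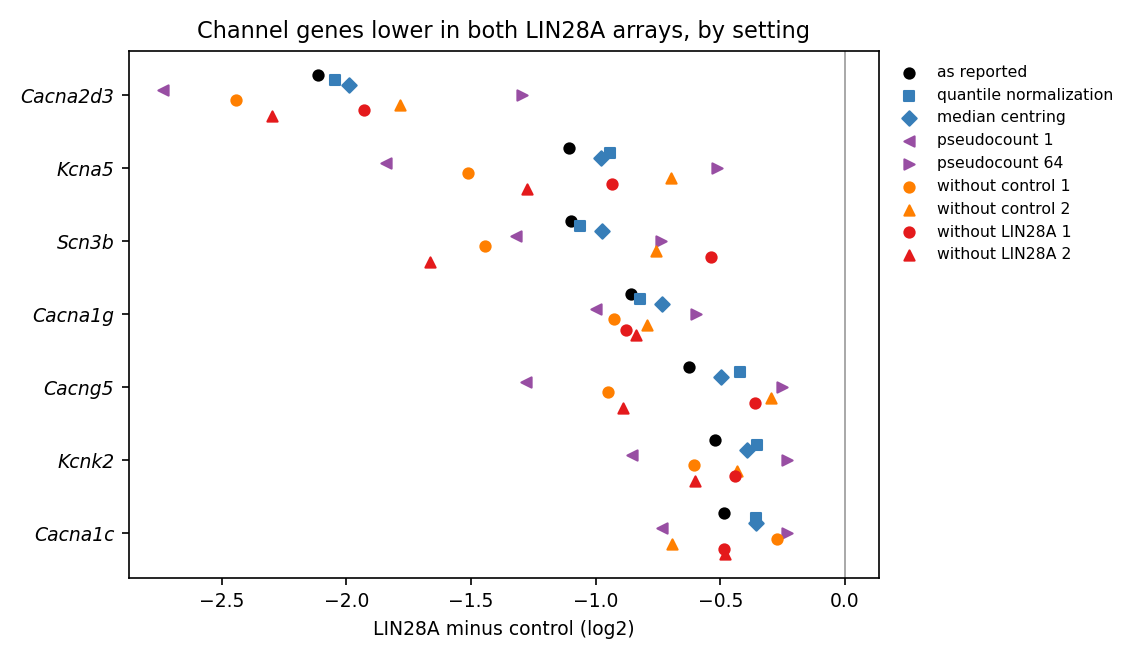
Log2 difference of LIN28A minus control for the 7 channel genes lower in both LIN28A arrays, as reported and under other scalings, pseudocounts and with each array left out. All 7 lie below 0 in every setting drawn, but they were chosen as lower in both arrays. For such genes, leaving out an array or changing the pseudocount cannot turn the sign. Only quantile normalization and median centring could have done so. The values spread from -2.74 to -1.29 for Cacna2d3 and from -0.74 to -0.23 for Cacna1c.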

How the data were processed

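The arrays, Affymetrix 3' expression arrays with 22690 probe sets, measured polyadenylated RNA in 2 control and 2 LIN28A arrays. The deposited table holds 1 intensity per probe set and array on a linear scale, made by the authors. The summary method of the probe sets was not given in the sources used here. In the values, each array's mean trimmed by 2 percent at each end was near 150.1, so the arrays had been scaled to a common level. Medians were 29.0 to 38.6, and 35.7% to 42.3% of probe sets read under 16. Depth has no meaning for arrays, and their number limits the precision.

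Control probe sets (64) were left out. The platform annotation named 20380 probe sets with 1 gene symbol, 691 with several and 1555 with none. Values were taken as log2(intensity + 16), so fold changes of dim genes are understated. Probe sets above the 30th percentile of mean log2 value (15838) were tested with limma 3.58.1 in R 4.3.3 (lmFit, eBayes) without a block, with Benjamini-Hochberg adjustment. The smallest p an exact permutation of 2 against 2 arrays allows is 0.333. Windows and figures were made with Python 3.11.15. RefSeq's table matched 93 of 93 gene symbols.

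Members and lists (channel partners, and neuronal, neural progenitor, glial, heart and skeletal muscle, fibroblast and smooth muscle, endoderm and pluripotency markers) were chosen with earlier results of these data known. The named genes were, from 1 probe set per gene with the highest mean log2 value, those with a mean of at least 16 whose LIN28A arrays lay on 1 side of both controls, the 3 brightest per ion, the smallest unadjusted p in each role with a gene at 16, Cacna2d3, and up to 6 channel partners with the smallest p. Other genes named, the rest of the 19 among them, were chosen after their values were seen. Alternatives were other pseudocounts, quantile normalization, median centring, other filters, a trend in eBayes, the replicate block, the mean of probe sets and leaving out each array.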

Additional observations from a re-analysis of the deposited data

How the results depend on the processing

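With 2 arrays per line, nothing about these genes passed the adjusted threshold without the block, under any setting run. In the labels, only the replicate number links arrays of the 2 lines. Deviations of same-numbered arrays from their group means correlated at 0.62 across probe sets. With the replicate block, 1 probe set was called higher (0.00631% of all in either direction), no channel gene was called, the lowest adjusted p among channel genes was 0.158 (Cacna2d3), and 6 channel genes were lower at an unadjusted p under 0.05 (Cacna1g, Cacna2d3, Cacng5, Kcna5, Kcnk2 and Scn3b), against 5.62% of all probe sets. Without the block that count was 3, with 5 at pseudocount 1 and 1 to 3 with an array left out (1 without control 2 or LIN28A 1). The median of all 93 genes was -0.42 with pseudocount 1, -0.0073 under quantile normalization, 0.034 after median centring, -0.28 for genes reaching 16 and -0.19 to -0.056 with an array left out. The calcium median was -0.56 with pseudocount 1, -0.059 with pseudocount 64, -0.075 under quantile normalization, -0.061 after median centring, -0.15 with probe sets averaged, -0.48 for genes reaching 16 and -0.22 to -0.15 with an array left out. In the same order the sodium median was -0.45, -0.046, -0.040, -0.029, -0.12, -0.51 and -0.26 to -0.11. The potassium median was -0.21 with pseudocount 1, 0.037 under quantile normalization, 0.063 after median centring and -0.11 to -0.020 with an array left out. Genes lower in both arrays numbered 14 under quantile normalization and 10 after centring (14.0% and 7.50% of all genes). Those higher numbered 18 and 13 (14.9% and 17.9% of all genes), with 2 and 1 among genes reaching 16 (14.4% and 21.3%). With probe sets averaged, 29 were lower and 7 higher, and among genes reaching 16 these counts were 9 and 0. No share over all genes is given for that setting. The sign turned for Cacng4 (0.063 after centring, -0.18 to 0.052 with an array left out), Kcnk5 (0.052 and -0.25 to 0.10) and Scn1a (0.026 under quantile normalization, -0.33 to 0.0067 with an array left out). With an array left out it turned for Kcnmb2 (-0.067 to 0.77), Kcnmb4 (-0.20 to 0.44) and Scn8a (-0.57 to 0.72). The cause was not tested.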
